A study of Ogataea parapolymorpha with 2 samples.

Results

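The nitrate assimilation genes of Ogataea parapolymorpha, a methylotrophic yeast that the labels call Hansenula polymorpha, were described here in untreated and caffeine-treated cells. They were chosen by orthologous group (COG, a family of related proteins shared across genomes) as the rows annotated with COG2223, COG1251 or COG2041, without use of any read count. The rule found 3 genes among 5408 features, 1 for each group. COG2223 holds nitrate transporters and gave HPODL_02387. COG2041 holds molybdenum enzymes of the nitrate reductase and sulfite oxidase type and gave HPODL_02384. COG1251 holds nitrite reductases and gave HPODL_02386.

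The cells were strain DL-1 (DL1-L in the growth protocol) with the genotype leu-, so that both libraries carry that marker. They were grown at 37 °C in YPD, a rich glucose medium, to an OD600 of 1.0. One part of the culture was then harvested, and this gave the untreated library. The other part received 20 mM caffeine for 2 h and gave the caffeine library. The series examines the cell wall integrity pathway of this yeast, and caffeine is a purine analogue used in yeast as a cell wall stress and known in baker's yeast as an inhibitor of the TOR kinase. Each of the 2 groups held 1 library, so the differences have no replicate check, no test between conditions was made, and intervals cover counting error only. No untreated part held for the same time is described, so that caffeine and time in culture cannot be told apart.

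Nitrate assimilation lets a cell live on nitrate as its only nitrogen source. A transporter of the major facilitator superfamily brings nitrate in. Nitrate reductase, which carries a molybdenum cofactor, heme and flavin, reduces it to nitrite, and nitrite reductase, which carries siroheme, reduces nitrite to ammonium. Baker's yeast lacks the pathway, whereas Hansenula polymorpha has long served as a yeast model of it. In that species the genes lie in a cluster together with genes of zinc-cluster regulators, are induced by nitrate and are repressed by reduced nitrogen such as ammonium. YPD supplies peptides and amino acids, and the labels mention no nitrate.

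After caffeine, the transporter and the nitrite reductase genes were each about 2-fold higher than without it, while the nitrate reductase type gene was not higher. All of these genes were close to the bottom of the expression range in both libraries. The libraries held 19184978 counted reads (untreated) and 17789838 (caffeine), of which the 3 genes together took 255 (exact 95% Poisson interval 225 to 288) and 537 (493 to 584). Levels are given below as scaled CPM (reads per 1000000 reads of a library, whose total is first adjusted by TMM, the trimmed mean of M values method, for differences in composition) or, for comparison between genes, as scaled CPM per kilobase of gene length. Folds are log2 ratios of scaled counts, caffeine over untreated, with an exact 95% Clopper-Pearson interval.

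The nitrate transporter gene HPODL_02387 had 67 reads without caffeine and 155 with it. This corresponds to 3.77 and 8.08 scaled CPM, and to 2.47 and 5.29 scaled CPM per kilobase. The caffeine library was therefore higher, by a log2 fold of 1.10 (0.68 to 1.54). The lower end of that interval lies under 2-fold. With fewer than 10 CPM of the library total in both libraries, the gene did not enter the set of compared genes.

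The nitrate reductase type gene HPODL_02384 had 51 reads without caffeine and 35 with it, or 2.87 and 1.82 scaled CPM. Per kilobase its level was 1.11 without caffeine and 0.71 with it, the lowest of the 3 genes in each library. The caffeine library was lower by a log2 fold of -0.65, with an interval of -1.32 to -0.0035 that reaches almost to no difference. With library totals in place of TMM, which adds 0.22 to every log2 fold, the interval includes no difference. This row carries the additional group COG0543, a flavin-containing reductase family. A nitrate reductase of the eukaryotic kind joins such a flavin part to the molybdenum part, while a sulfite oxidase does not. The row does not carry the cytochrome b5 group (COG5274), another part of nitrate reductase. The gene too was below 10 CPM in both libraries.

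The nitrite reductase gene HPODL_02386, whose enzyme yields ammonium, had 137 reads without caffeine and 347 with it. It stood at 7.70 and 18.09 scaled CPM, or 2.46 and 5.77 per kilobase. The log2 fold was 1.23 (0.94 to 1.53), that is 2.35-fold, and placed it at rank 231 from the top among 4861 compared genes. It entered that set through the caffeine library alone. Among all 5325 protein-coding genes it was at rank 279. It was the only member to reach 10 CPM, with 19.5 CPM of the library total after caffeine.

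**Figure D1:**
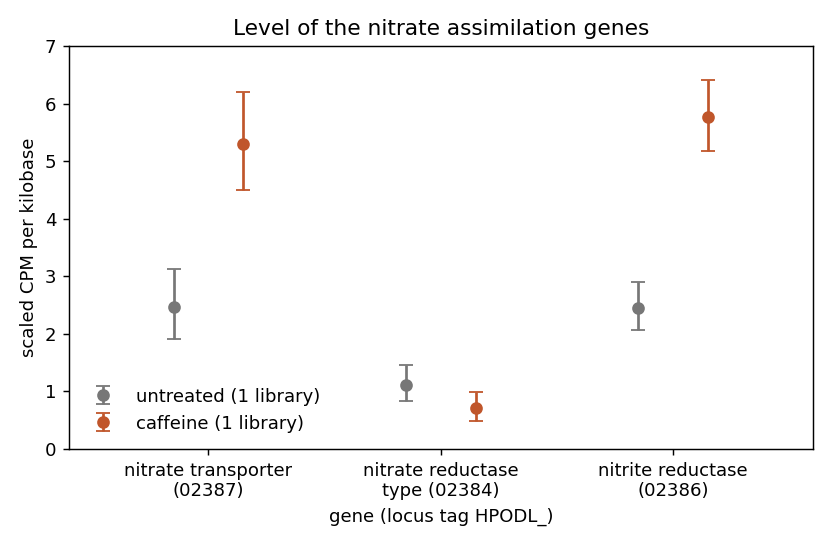
Scaled CPM per kilobase of the 3 nitrate assimilation genes in the untreated (grey) and caffeine (orange) libraries, 1 library each; bars are exact 95% Poisson intervals of the read count. The transporter goes from 2.47 to 5.29 and nitrite reductase from 2.46 to 5.77, with bars that do not overlap, while the nitrate reductase type gene stays lowest at 1.11 and 0.71 with bars that do.

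The members' folds stand here beside those of the whole series. Of the 1 member compared, 1 passed 2-fold upward and 0 downward, where 7.12% and 5.27% of all 4861 compared genes did. That member reached 10 CPM through the caffeine library alone (7.14 CPM of the library total without caffeine), so that being compared and being higher are tied and the count supports nothing. With all 5325 protein-coding genes that had at least 1 read, 2 of the 3 members were at least 2-fold higher and 0 lower, beside 7.72% and 5.95% of all genes. Large ratios were more frequent among genes as weakly expressed as these. Among 540 genes with a mean of 10 to 20 scaled CPM, the range of nitrite reductase, 14.3% were at least 2-fold higher. Among 288 genes with 5 to 10, the range of the transporter, 16.7% were. Among 219 genes with 1 to 5, the range of the nitrate reductase type gene, 21.5% passed 2-fold upward and 11.9% downward. With 5 CPM added to both libraries, nitrite reductase stood at 0.86 and the transporter at 0.58, so that neither passed 2-fold.

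**Figure D2:**
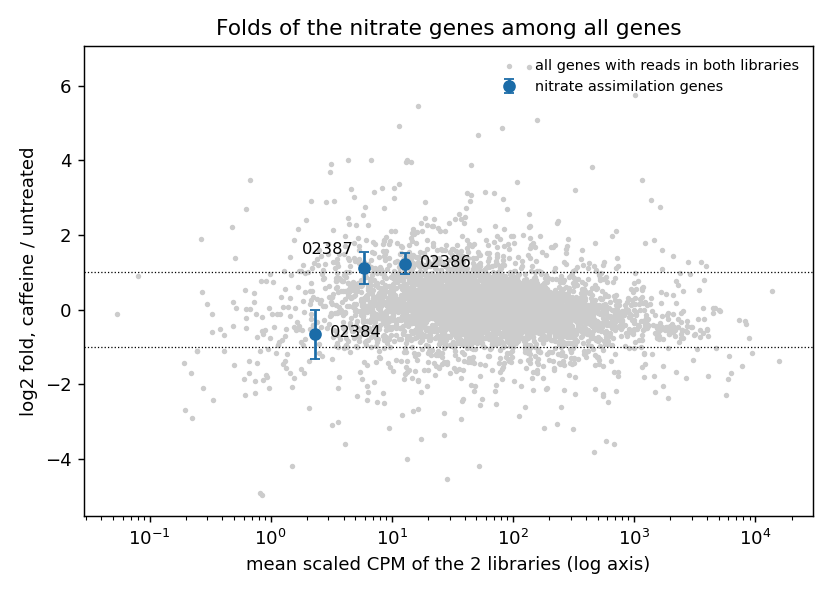
Log2 fold (caffeine over untreated) against the mean scaled CPM of the 2 libraries (log axis) for genes with reads in both; grey points are genes, blue points the nitrate assimilation genes with 95% counting intervals, labelled by the end of the locus tag, and dotted lines mark 2-fold. The 3 genes lie in the sparse left part of the cloud, at folds of -0.65, 1.10 and 1.23.

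In level, the genes were ordered the same way by count in both libraries, but per length the transporter and nitrite reductase could not be told apart. Per kilobase, nitrite reductase was at 1.00 times the transporter without caffeine and at 1.09 times with it. Their log2 folds differed by 0.13 (exact interval -0.40 to 0.65), which is within counting error and leaves room for a difference of over 1.5-fold. The nitrate reductase type gene stood apart from both. Its log2 fold lay below that of nitrite reductase by a difference of -1.88 (-2.61 to -1.16) and below that of the transporter by -1.75 (-2.55 to -0.96). These differences between genes do not depend on how the libraries were scaled. As levels per kilobase, nitrite reductase was 2.21 times the nitrate reductase type gene without caffeine and 8.16 times with it. Among all 5325 protein-coding genes ordered by untreated level per kilobase, the nitrate reductase type gene was at rank 71 from the bottom, nitrite reductase at 176 and the transporter at 178.

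The 3 genes are neighbours. The tables give HPODL_02384 from 934917 to 937496, HPODL_02386 from 939241 to 942375 and HPODL_02387 from 942585 to 944111, a span of 9195 bases. The contig column of the tables is empty, and the build is not given in the sources used here. All 5408 rows have the same start and end as the RefSeq gene table of assembly Hansenula_2, which puts these genes on chromosome I. Only 6 further genes follow on that chromosome, and the last of them ends 10534 bases beyond the transporter gene. The strand column holds a plus sign in all 5408 rows, so that it gives no orientation, and which genes share a promoter region cannot be read from it.

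Between the nitrate reductase type gene and nitrite reductase lies 1 further gene, HPODL_02385, at 937607 to 939196. It is separated from them by 110 and 44 bases, and 209 bases separate nitrite reductase from the transporter. HPODL_02385 had 267 reads without caffeine and 681 with it, a level of 9.44 and 22.32 scaled CPM per kilobase. Its log2 fold was 1.24 (1.04 to 1.45), and the log2 fold of nitrite reductase minus that of this gene was -0.01 (-0.37 to 0.35). The gene carries only the identifier NOG75164, an orthologous group without a function named in the tables. Just 1 other gene in the genome carries the same identifier, HPODL_02383, which lies on the other side of the nitrate reductase type gene at 933071 to 934915. That gene had 939 reads without caffeine and 1300 with it, and a log2 fold of 0.36 (0.24 to 0.48). The pair sharing NOG75164 thus flanks the nitrate reductase type gene, and both of its genes had more reads than any of the 3 members in each library.

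Only 1 base separates HPODL_02383 from the nitrate reductase type gene, and its count was 18.4 times that of this gene without caffeine and 37.1 times with it. Library preparation kept strand, but whether counting used it is not given, and reads of an abundant neighbour that run across the border could enter a count of 51 or 35. Their part in the nitrate reductase type value was not tested.

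Going outward, the folds of the neighbours varied in sign and size. HPODL_02382, with no orthologous group, had 251 reads without caffeine and 57 with it, a log2 fold of -2.25 (-2.69 to -1.83). This gene reached 10 CPM through the untreated library alone (3.20 CPM of the library total with caffeine). Beyond it HPODL_02381 (NOG212525) stood at -0.55 (-0.69 to -0.41). On the far side of the transporter, HPODL_02388 (NOG01350) went from 1912 to 3414 reads, a log2 fold of 0.73 (0.65 to 0.81). HPODL_02389, with no group, had 42 and 38 reads and stood at -0.25 (-0.93 to 0.41). HPODL_02390 (NOG17521) stood at 0.80 (0.50 to 1.11). Taking the 5 genes on each side and the one between, 8 of 11 reached 10 CPM. Of these 8, 1 was past 2-fold upward and 1 downward, beside 7.12% and 5.27% of all compared genes. With library totals 3 were past 2-fold upward, HPODL_02380 at 1.15 and HPODL_02390 at 1.02 joining HPODL_02385, and still 1 downward. HPODL_02380 and HPODL_02390 reached 10 CPM through the caffeine library alone (7.30 and 7.45 CPM of the library total without caffeine). For both, being compared and being higher are tied. Of the 11 genes, 6 lay above 0 and 5 below under TMM scaling. With library totals HPODL_02379 and HPODL_02392 moved from below 0 to 0.17 and 0.12. The stretch HPODL_02385 to HPODL_02387 was thus a run of 3 adjacent genes at least 2-fold higher, counted after its values were seen and without a filter on level. The genome held 16 runs of 3 or more such genes, the longest of 7, and 10 runs of 3 or more genes at least 2-fold lower.

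**Figure D3:**
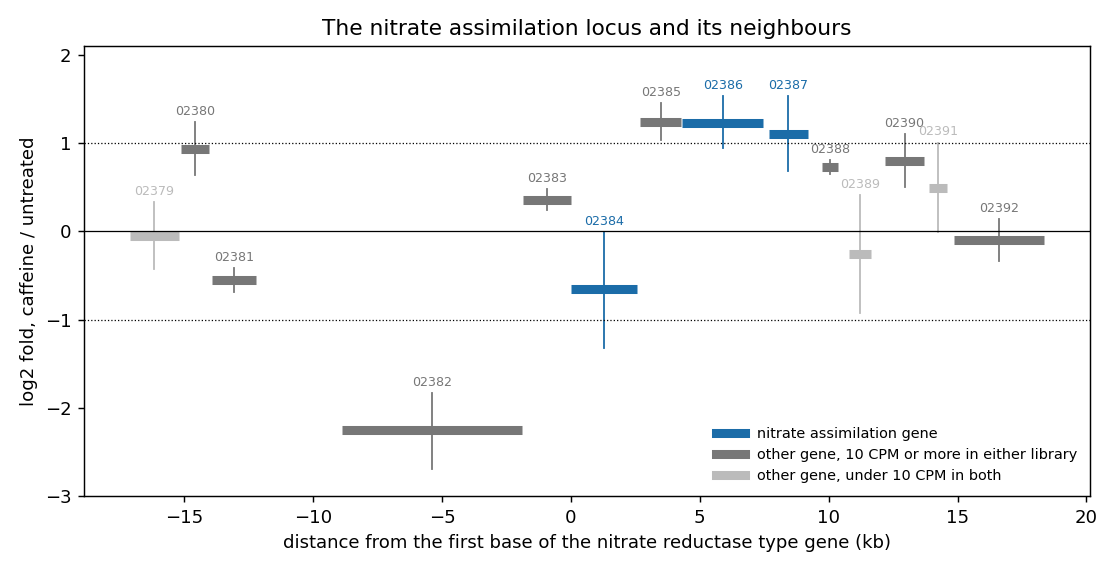
Log2 fold (caffeine over untreated) of each gene along the locus, drawn to scale against the distance in kb from the first base of the nitrate reductase type gene; thick bars are genes, thin lines 95% counting intervals, dotted lines 2-fold. HPODL_02385, nitrite reductase (HPODL_02386) and the transporter (HPODL_02387) sit side by side at 1.24, 1.23 and 1.10, between the nitrate reductase type gene at -0.65 and HPODL_02388 at 0.73.

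Nitrate reductase cannot work without its cofactors. Molybdenum cofactor is built from GTP by a chain of enzymes that baker's yeast also lacks. The list of its groups held 12 genes, 10 of them compared, of which 1 was at least 2-fold higher and 0 lower, a share near the 7.12% and 5.27% of all compared genes. With 5 CPM added the count was 0. The median log2 fold was 0.37, against 0.01 over all compared genes. The list is mixed, because 7 of the 12 carry COG0476, which also holds the activating enzymes of ubiquitin and related proteins. The single gene past 2-fold, HPODL_00528 at 1.20 (0.98 to 1.42), is one of these 7. The 5 genes without COG0476 belong to groups specific to the cofactor, a split made after the values were seen, and 4 of them lay below 0. HPODL_02673 (COG2896, the first step) went from 330 to 318 reads, a log2 fold of -0.16 (-0.39 to 0.06). HPODL_02674 (COG0315, which acts with it) went from 236 to 222 reads and was the lowest compared gene of the list at -0.20 (-0.47 to 0.07). These genes are neighbours as well, 148 bases apart. The genes of the molybdopterin synthase groups, HPODL_01640 (COG1977) and HPODL_00195 (COG0314), were under 10 CPM in both libraries, at -0.48 (-0.94 to -0.03) and -0.14 (-0.55 to 0.27). The gene above 0 under TMM scaling was HPODL_03424 (COG0303 with COG0521, insertion of molybdenum) at 0.64 (0.48 to 0.81). None of the 5 was past 2-fold, and most genes of the series were not.

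Siroheme, the cofactor of nitrite reductase, also serves sulfite reductase. Both genes of its list were within 2-fold, with HPODL_01899 (COG1648 with COG0007) at 0.61 (0.50 to 0.73) and HPODL_05212 (COG1648) at 0.18 (0.05 to 0.31). The sulfite reductase list, which holds its flavoprotein group COG0369 and related reductases, had 0 of 5 genes past 2-fold in either direction. Its lowest gene was HPODL_03619 (COG0369) at -0.56 (-0.59 to -0.52) and its highest HPODL_01339 (COG0369) at 0.75 (0.64 to 0.85). The gene annotated with the sulfite reductase group COG0155, HPODL_01957, was at 0.10 (0.06 to 0.14).

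The ammonium made by nitrite reductase enters the same enzymes and meets the same transporters as ammonium from outside. Of the 4 ammonium assimilation genes compared, 2 were at least 2-fold higher and 0 lower, beside 7.12% and 5.27% of all compared genes. These were glutamate dehydrogenase (HPODL_01115, COG0334) at 1.87 (1.84 to 1.90) and glutamine synthetase (HPODL_02650, COG0174), which joins ammonium to glutamate, from 20051 to 58599 reads at 1.44 (1.41 to 1.46). Glutamate synthase (HPODL_00613, COG0069 with COG0070, COG0493 and COG0067) was at 0.01 (-0.02 to 0.04), the lowest of the list. The remaining gene, HPODL_02660, is in the list through COG0493 alone and stood at 0.09 (-0.09 to 0.28). Of the 4 ammonium transporter genes (COG0004), 2 were at least 4-fold higher, as were 1.38% of all compared genes, and 0 were 2-fold lower. They were HPODL_03613 at 5.07 (4.84 to 5.30) and HPODL_02350 at 2.45 (2.15 to 2.76), and the lowest was HPODL_03699 at -0.47 (-0.63 to -0.31). HPODL_03613 and HPODL_02350 reached 10 CPM through the caffeine library alone (8.44 and 5.42 CPM of the library total without caffeine). For these genes being compared and being higher are tied. The 4-fold count was not repeated under the other settings. HPODL_02350 had 5.85 scaled CPM without caffeine and 31.95 with it, so that adding 5 CPM would bring it under 4-fold. The only gene of the formate and nitrite channel group (COG2116), HPODL_05107, went from 3159 to 2213 reads, a log2 fold of -0.62 (-0.70 to -0.54).

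Regulators of the GATA type (COG5641) control nitrogen source use in fungi. None of the 3 compared genes of that group was past 2-fold, where 7.12% of all compared genes were higher and 5.27% lower. HPODL_03506 was highest at 0.99 (0.87 to 1.11) and HPODL_03720 lowest at -0.62 (-0.76 to -0.49). With library totals in place of TMM, which adds 0.22 to every log2 fold, HPODL_03506 passes 2-fold. Groups that share a protein part with nitrate reductase, cytochrome b5 (COG5274) and the flavin reductase type (COG0543), went both ways. Of 12 genes, 2 passed 2-fold upward and 2 downward, beside 7.12% and 5.27% of all compared genes, with a median of -0.14. The higher genes were HPODL_03418 at 3.11 (2.87 to 3.36) and HPODL_04464 at 2.56 (2.34 to 2.80), and the lower ones HPODL_00048 at -2.12 (-2.18 to -2.07) and HPODL_01464 at -1.36 (-1.37 to -1.34). Both higher genes reached 10 CPM through the caffeine library alone (8.03 and 9.59 CPM of the library total without caffeine). For them being compared and being higher are tied. HPODL_03418, HPODL_04464 and HPODL_00048 all carry COG1304, the group of lactate and other 2-hydroxy acid dehydrogenases, beside the cytochrome group. HPODL_01464 carries the fatty acid desaturase group COG1398. Relatives of the transporter in the wider major facilitator group COG0477 had 0 of 8 compared genes at least 2-fold higher and 2 lower. The shares of all compared genes were 7.12% and 5.27%. Folds in this group ran from HPODL_01129 at -2.82 (-3.25 to -2.42) to HPODL_01130 at 0.18 (-0.09 to 0.46). HPODL_01129 reached 10 CPM through the untreated library alone (3.26 CPM of the library total with caffeine).

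**Figure D4:**
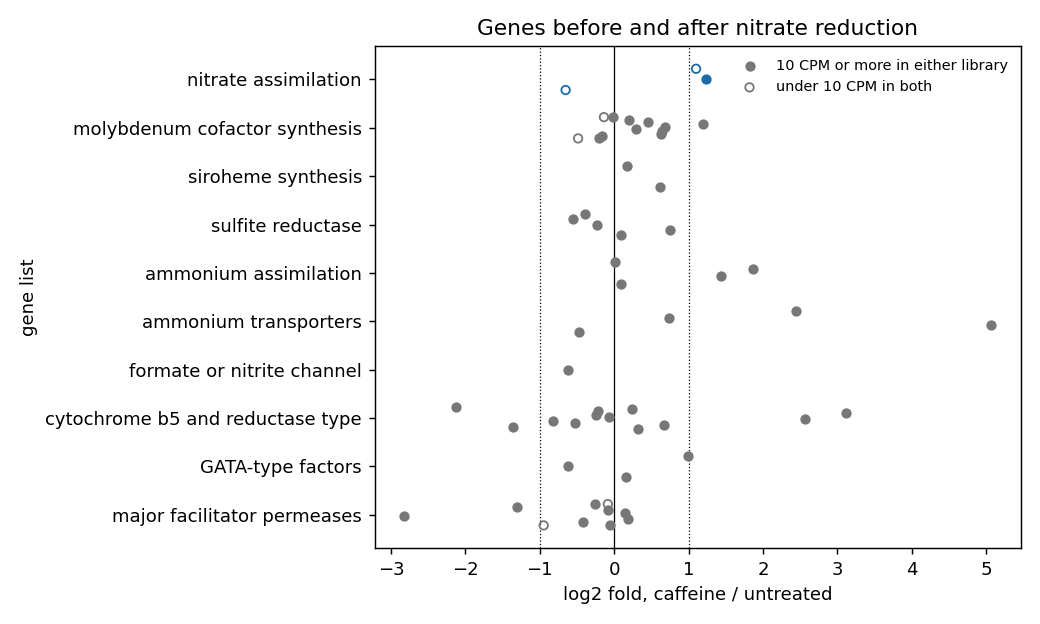
Log2 fold (caffeine over untreated) of the nitrate assimilation genes (blue) and of related gene lists (grey), each point a gene; filled points had 10 CPM or more in either library, open points less, and dotted lines mark 2-fold. The ammonium transporter list reaches 5.07, while the siroheme, sulfite reductase and GATA lists stay within 2-fold under TMM scaling; with library totals 1 GATA-type gene passes it.

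By their levels per kilobase in the 2 libraries, the 2 genes with a COG of named function closest to nitrite reductase were HPODL_02290 and HPODL_05378, out of 1777 candidates, from which the members were left out. Candidates were compared genes only, so that a gene under 10 CPM in both libraries could lie nearer and not be named. Genes without a COG category, or with one of general or unknown function, were left out too. The transporter itself lay nearer, at a distance of 0.13 log2 units. HPODL_02290 (COG0531, amino acid transporters) had 84 and 193 reads, a log2 fold of 1.09 (0.71 to 1.48) and a distance of 0.25 log2 units. HPODL_05378 (COG0665, FAD-dependent amino acid oxidases) had 39 and 204 reads, a log2 fold of 2.28 (1.78 to 2.81) and a distance of 0.76. Both genes reached 10 CPM through the caffeine library alone, so that being a candidate and being higher are tied. The likeness rests on 2 libraries and is a description of them.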

How the data were processed

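RNA-seq libraries of untreated and caffeine-treated cells, 1 each, were compared. Per the labels' protocols, RNA came from hot phenol extraction, and stranded libraries gave paired reads of 100 bases. Bowtie2 was used per the submitters' processing notes; its version, and the counting tool, strand setting and build, were not given in the sources used here. The authors deposited raw read counts per gene and RPKM values, the latter named so per the file headers. Their tables of counts scaled by RLE and TMM were not used.

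TMM factors from edgeR 4.0.16 (R 4.3.3) turned the library totals into effective totals of 17788292 (untreated) and 19186645 (caffeine). No test was run with edgeR or DESeq2. Genes with at least 10 CPM of the library total in either library (4861 of 5325 protein-coding) were compared. The 83 RNA features had 0 reads. A count of 0 was set to 3. Genes were counted by a 2-fold rule. Clopper-Pearson, conditional odds ratio (scipy 1.17.1) and Poisson intervals are at 95% and cover counting error only, since each group had 1 library. PCR copies were not told apart by molecular identifiers, so that the intervals may be too narrow even for counting error. The calculation was tested on simulated data with known folds. These were Poisson counts, without spread between cultures, so that the test covers the arithmetic only. Genes with as few reads as the nitrate reductase type gene were not simulated.

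Alternatives were DESeq2 1.42.0 size factors, library totals, 5 CPM added, no filter, 50 CPM, and the deposited RPKM ratio. Named genes were every member, the 3 nearest genes on each side and genes between, the extremes and genes past 2-fold of each list, and the 2 genes nearest in level to a compared member. The other genes specific to the molybdenum cofactor, HPODL_01957, HPODL_02660, and the neighbours HPODL_02379, HPODL_02380 and HPODL_02392 were added after their values were seen. Members and lists were chosen with earlier results of these data known. COG functions were supplied from general knowledge.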

Additional observations from a re-analysis of the deposited data

How the results depend on the processing

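The count of nitrate assimilation genes at least 2-fold higher, 1, became 2 without the CPM filter, 0 with 5 CPM added to both libraries and 0 with a filter of 50 CPM, which no member reaches. With 5 CPM added, nitrite reductase (HPODL_02386) stood at 0.86 and the transporter (HPODL_02387) at 0.58. Such an addition shrinks the ratios of low genes by construction. With library totals they stood at 1.45 and 1.32 and the nitrate reductase type gene (HPODL_02384) at -0.43. The sign of HPODL_02384 was negative under all 4 other scalings or sources tried, but most of these could hardly change it. Adding 5 CPM cannot reverse a sign, and DESeq2 size factors shifted the median log2 fold by only -0.01. Library totals add 0.22, which carries the upper end of its interval, -0.0035, past no difference. Over all compared genes, 346 passed 2-fold upward and 256 downward. These counts became 564 and 175 with library totals, 553 and 178 with the deposited RPKM ratio, and 183 and 179 with the 50 CPM filter. Pooled over the related lists without the major facilitator permeases, the counts past 2-fold stayed within 1.5 times of 7 higher and 2 lower. Of the higher genes, HPODL_03613, HPODL_02350, HPODL_03418 and HPODL_04464 reached 10 CPM through the caffeine library alone. Singly, the GATA-type list went from 0 to 1 higher with library totals or the RPKM ratio, and the molybdenum cofactor list from 1 to 0 with 5 CPM added or the 50 CPM filter. With that filter the ammonium transporters had 1 in place of 2 higher and the major facilitator permeases 1 in place of 2 lower. Of the neighbouring genes, 3 in place of 1 were higher with library totals or the RPKM ratio, and 0 were higher or lower with the 50 CPM filter. The genes so added, HPODL_02380 and HPODL_02390, reached 10 CPM through the caffeine library alone. No neighbouring gene past 2-fold changed sign. The settings tried could hardly have done this, since they shifted the median log2 fold by at most 0.22. No paired analysis was possible because each group has 1 library, and for the same reason no replicate could be left out. Each member's value rests on 35 to 347 reads.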
